A study of Homo sapiens with 9 samples.

Results

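The genes for the NF-κB subunits, for inhibitors of NF-κB and for targets of it in TNF receptor signaling were followed through EVI1 knockdown in the AML cell line HNT34. They were taken by symbol from the table of counts: NFKB1, NFKB2, REL, RELA and RELB as subunits, NFKBIA, NFKBIE and TNFAIP3 as inhibitors, and BIRC3 and TRAF1 as targets. All 10 were among the 16612 genes of the table and among the 16312 that passed the filter on low counts. HNT34 is a human AML line with high EVI1 expression, and all libraries came from this 1 line. The cells were transduced with a lentiviral vector that also carries RFP and puromycin resistance, encoding either a control shRNA without a target (non-targeting, NT) or an EVI1-directed shRNA, sh#16 or sh#87, and RNA was collected 3 days after selection. PolyA RNA was sequenced with a stranded kit, with 3 libraries in each of the NT, sh#16 and sh#87 groups. One field of the labels gives the shRNA of the sh#87 libraries the number 18, while their titles and the study give 87. The labels do not say whether the 3 libraries of a group were separate cultures, so p-values measure the spread between these libraries, which may be technical.

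NF-κB is a family of dimeric transcription factors. NFKB1 and NFKB2 encode the precursors p105 and p100, which are processed to p50 and p52, while RELA, RELB and REL encode subunits with a transactivation domain. In resting cells IκB proteins such as the product of NFKBIA hold the dimers in the cytoplasm. In the canonical pathway the IKK complex marks IκB for degradation, and in the noncanonical pathway the kinase NIK, encoded by MAP3K14, drives the processing of p100. NFKBIA, TNFAIP3, BIRC3, TRAF1, NFKB1, NFKB2 and RELB are known targets of NF-κB, and several of them feed back on it. In myeloid cells the pathway is known for its part in inflammatory gene expression and in survival.

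The libraries held between 17096170 and 43502389 counts. MECOM, which encodes EVI1, stood between 440 and 571 CPM in NT, between 143 and 145 CPM in sh#16 and between 106 and 109 CPM in sh#87 libraries, where CPM are counts scaled by edgeR to an equal library total after TMM normalization. The NT libraries differed more among themselves than the others, with a biological coefficient of variation of 24.9% against 3.75% in sh#16 and 6.97% in sh#87 libraries. Mitochondrially encoded genes took 15.9%, 11.5% and 4.69% of the counts in NT replicates 1, 2 and 3, and between 2.69% and 5.97% in knockdown libraries. Of 5 markers of AML blasts, 4 were in the table and their summed level was between 1620 and 1780 CPM in NT and between 204 and 332 CPM in knockdown libraries, with CD34, KIT and PTPRC lower and CD33 not called with both shRNAs. The summed level of 6 of 8 monocyte markers was between 63.9 and 68.9 CPM in NT and between 72.9 and 108 CPM in knockdown libraries. Its members went both ways with both shRNAs: ITGAM, between 31.2 and 37.7 CPM in NT and between 56.3 and 80.8 CPM in knockdown libraries, and LYZ were higher, while CSF1R (7.35 to 13.4 CPM in NT, 1.41 to 3.33 CPM in knockdown) and MNDA were lower. For 3 of 5 B cell markers it was between 21.1 and 48.5 CPM in NT and between 2.64 and 6.18 CPM in knockdown libraries, for 2 of 5 T cell markers between 7.27 and 10.1 CPM and between 3.36 and 6.46 CPM, and for 3 of 7 stromal and epithelial markers between 126 and 138 CPM and between 100 and 125 CPM. CD3G was near 0 in NT, at no more than 0.13 CPM in any of its libraries, and COL1A1 was at no more than 0.17 CPM in NT and between 25.9 and 30.3 CPM in knockdown libraries. The part of these differences in the results that follow was not tested.

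The 250 bases before the annotated start sites were read from the RefSeq promoter table (GRCh38.p14) and searched for the κB consensus, the 10-base motif of NF-κB dimers, on both strands. Of the 8 genes with a window in that table, 6 held at least 1 match (75.0%). The share was 7.86% of the 10373 tested genes that have a window and 6.28% of all 27305 genes that have a window. Most of the 8 are known targets of NF-κB, so a high share follows from the choice of genes and is given as a description. Genes with several start sites have several windows and so more places for a match. RELB and NFKBIE had no window. The windows shown here, with matches in capitals, were chosen because they cover the genes with the largest changes in both directions: NFKB1 and NFKBIA, which fell after knockdown, and NFKB2, TNFAIP3, BIRC3 and TRAF1, which rose.
NFKB1, start 1, chr4:102501109-102501358, plus strand: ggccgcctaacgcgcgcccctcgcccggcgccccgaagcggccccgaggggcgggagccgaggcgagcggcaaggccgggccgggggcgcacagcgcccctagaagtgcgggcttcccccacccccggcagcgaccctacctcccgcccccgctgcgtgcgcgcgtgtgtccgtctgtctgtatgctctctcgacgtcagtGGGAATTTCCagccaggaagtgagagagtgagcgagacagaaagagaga
NFKBIA, chr14:35404750-35404999, minus strand: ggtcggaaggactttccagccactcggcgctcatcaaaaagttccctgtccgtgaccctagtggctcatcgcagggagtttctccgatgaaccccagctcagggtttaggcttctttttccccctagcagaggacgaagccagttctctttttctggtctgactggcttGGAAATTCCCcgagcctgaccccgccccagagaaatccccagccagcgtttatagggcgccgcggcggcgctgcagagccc
NFKB2, start 2, chr10:102394328-102394577, plus strand: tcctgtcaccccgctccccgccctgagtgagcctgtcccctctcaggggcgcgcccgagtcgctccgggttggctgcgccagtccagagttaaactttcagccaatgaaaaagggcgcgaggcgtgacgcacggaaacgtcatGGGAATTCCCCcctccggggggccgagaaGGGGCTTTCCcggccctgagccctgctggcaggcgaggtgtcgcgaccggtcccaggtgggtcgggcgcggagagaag
TNFAIP3, chr6:137867009-137867258, plus strand: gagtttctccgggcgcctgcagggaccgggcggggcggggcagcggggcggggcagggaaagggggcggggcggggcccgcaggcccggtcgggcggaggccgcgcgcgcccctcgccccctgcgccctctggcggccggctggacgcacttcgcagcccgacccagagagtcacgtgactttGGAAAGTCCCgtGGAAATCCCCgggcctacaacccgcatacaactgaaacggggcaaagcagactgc
BIRC3, chr11:102317234-102317483, plus strand: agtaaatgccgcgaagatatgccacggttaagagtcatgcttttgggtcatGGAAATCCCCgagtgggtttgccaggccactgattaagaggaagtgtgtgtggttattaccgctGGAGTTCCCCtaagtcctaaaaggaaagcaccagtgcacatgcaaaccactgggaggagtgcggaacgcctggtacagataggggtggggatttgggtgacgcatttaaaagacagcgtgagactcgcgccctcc
TRAF1, start 1, chr9:120929172-120929421, minus strand: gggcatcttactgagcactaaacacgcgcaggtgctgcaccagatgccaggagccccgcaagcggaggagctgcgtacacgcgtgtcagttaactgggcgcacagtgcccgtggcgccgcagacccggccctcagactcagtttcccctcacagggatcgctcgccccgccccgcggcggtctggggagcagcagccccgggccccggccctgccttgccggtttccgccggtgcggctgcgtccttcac

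Counted back from the start site, the NFKB1 match lay at bases -49 to -40 and the NFKBIA match at -81 to -72. In the second window of NFKB2, 3 overlapping matches on both strands filled bases -107 to -97, and a further match lay at -78 to -69. TNFAIP3 held matches at -67 to -58 and at -55 to -46, and BIRC3 at -199 to -190 and at -135 to -126. The third window of NFKB2 held 2 more matches, and the window of REL held a pair that overlap on opposite strands. No match was found in the 3 windows of TRAF1 or the 2 windows of RELA. Matches thus stood before genes that fell and before genes that rose, and the gene with the largest rise had none. A match describes these letters only, and binding of NF-κB was not measured in these data.

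When the 6 knockdown libraries were pooled and set against NT, 7 of the 10 genes passed an adjusted p of at most 0.01. BIRC3, NFKB2, RELA, TNFAIP3 and TRAF1 were higher after knockdown, and NFKB1 and NFKBIA were lower. The knockdown changed a large part of the transcriptome: at the same threshold 30.1% of all genes tested were higher and 29.7% were lower. Higher calls were thus 5 of 10 and lower calls 2 of 10 against these shares. The same 5 genes lay higher in every knockdown library than in every NT library, as did 33.9% of all genes tested, and the same 2 lay lower, as did 32.1%. The median log2 fold change was 0.65 for the 10 genes and 0.05 for all genes tested. When a log2 fold change of 2 or more in size was also required, the threshold of the study, TRAF1 and BIRC3 were higher, where 9.74% of all genes were, and 0 of the 10 genes were lower, where 5.66% of all genes were. NFKB1, at -2.00, lay just short of that condition.

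Each shRNA was also compared with NT on its own, in 1 fit of the 3 groups, so that both comparisons share the NT libraries. With sh#16 the same 5 genes were higher, where 29.8% of all genes were, and the same 2 were lower, where 30.2% were. With sh#87 RELB joined them, which made 6 higher and 2 lower, where 34.3% of all genes were higher and 33.6% lower. Under the stricter condition TRAF1 and BIRC3 were higher with sh#16 and with sh#87, beside 7.95% and 11.7% of all genes. NFKB1 was lower under it with sh#87 alone, beside 7.14% of all genes, and 0 genes were lower with sh#16, beside 4.84%. The median log2 fold change of the 10 genes was 0.41 with sh#16 and 0.60 with sh#87, and that of all genes was 0.04 in each.

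**Figure D1:**
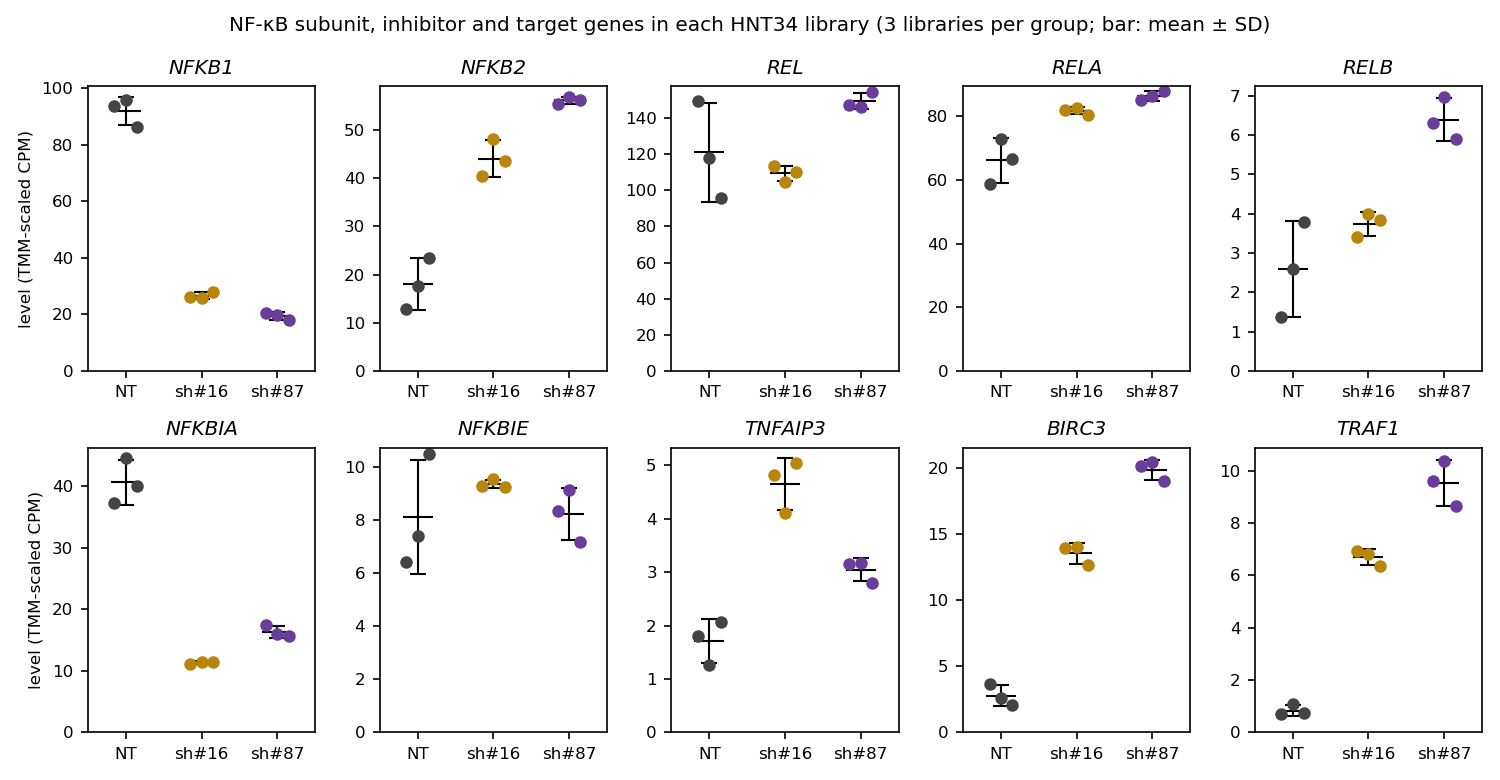
Level of each of the 10 genes in CPM (TMM-scaled, axes from 0) in the 3 NT, 3 sh#16 and 3 sh#87 libraries; each point is 1 library and bars give the mean and SD. All knockdown libraries lay below NT for NFKB1 and NFKBIA and above NT for NFKB2, RELA, TNFAIP3, BIRC3 and TRAF1.

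Of the subunit genes, NFKB1 lies on chromosome 4 from 102501359 to 102617302 (GRCh38.p14, as are all positions here). It stood at 93.6, 95.6 and 86.1 CPM in the NT libraries, at 26.0, 25.7 and 28.0 CPM in the sh#16 libraries and at 20.5, 19.7 and 17.8 CPM in the sh#87 libraries. The 6 knockdown libraries were all far below NT, and the sh#87 libraries were all below the sh#16 libraries. NFKB1 was 3.45-fold lower with sh#16, a log2 fold change of -1.79 (SE 0.08, adjusted p = 1.85e-07 in edgeR, which gave all such values here). The difference was 4.74-fold with sh#87, a log2 fold change of -2.25 (SE 0.08, adjusted p = 3.81e-08). With both shRNAs the log2 fold change was -2.00 (SE 0.14, adjusted p = 9.99e-07), lower than that of all but 5.82% of the genes tested. No alternative setting or omission of a library lost the call against NT, with values between -1.89 and -2.06 for both shRNAs.

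NFKB2, the partner precursor, moved the other way. It lies on chromosome 10 from 102394110 to 102402529. Its level was 12.9, 17.7 and 23.5 CPM in NT, 40.6, 48.2 and 43.5 CPM in sh#16 and 55.4, 56.9 and 56.2 CPM in sh#87 libraries. The groups did not overlap, but the NT libraries spread almost as widely as the step between the shRNAs. The lowest NFKB2 level was that of the NT library with 15.9% of mitochondrial counts and the highest NT level that of the library with 4.69%. RELB and NFKBIE rose in the same order of NT libraries, REL and BIRC3 fell in it, and the other members did neither. The part of the mitochondrial share in these spreads was not tested. NFKB2 was 2.44-fold higher with sh#16 (log2 fold change 1.29, SE 0.18, adjusted p = 2.04e-04) and 3.11-fold higher with sh#87 (1.63, SE 0.19, adjusted p = 3.42e-05). With both shRNAs the log2 fold change was 1.47 (SE 0.20, adjusted p = 7.41e-05), and it was 1.27 when NT replicate 1 and 1.69 when NT replicate 3 was left out.

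The opposite changes turned the balance of the precursor genes over. For each NFKB2 count, the NT libraries held 7.28, 5.39 and 3.66 NFKB1 counts, the sh#16 libraries 0.642, 0.533 and 0.645, and the sh#87 libraries 0.369, 0.346 and 0.317. In every NT library the NFKB1 counts exceeded the NFKB2 counts, and in every knockdown library they were fewer. The log2 ratio of NFKB1 to NFKB2 counts differed by -3.52 between both shRNAs and NT. The difference was -3.12 with sh#16, -3.93 with sh#87 and -0.81 between sh#87 and sh#16. Since NFKB1 and NFKB2 each separated these groups in opposite directions, their ratio had to separate them too, and it is given as a description without a test. These ratios are of counts, and NFKB1's canonical transcript of 4055 bases is longer than that of NFKB2, of 3015 bases.

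**Figure D2:**
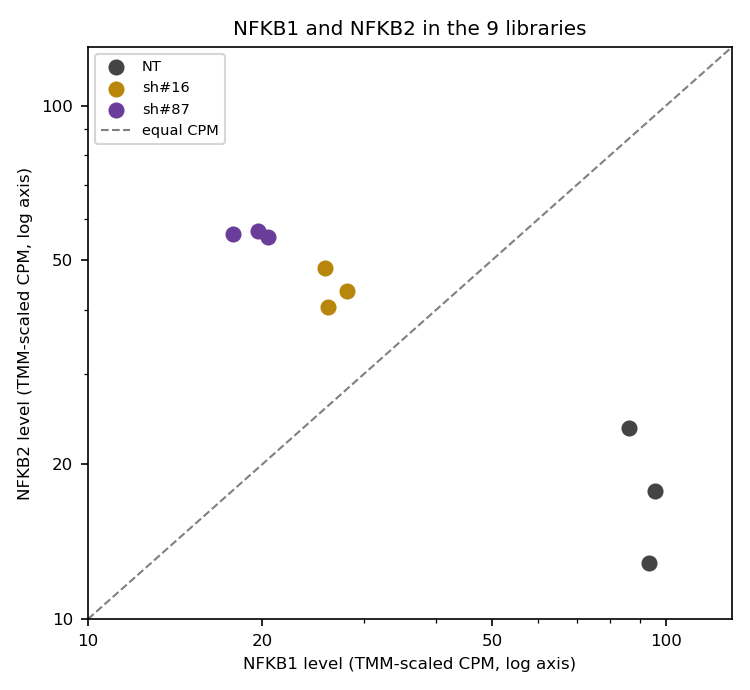
NFKB1 level (horizontal) against NFKB2 level (vertical) in CPM on log axes, with 1 point per library. The 3 NT libraries lie below the dashed line of equal CPM, at 86.1 CPM or more of NFKB1, and the 6 knockdown libraries lie above it, at 28.0 CPM or less of NFKB1.

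RELA, the main transactivating partner of p50, changed little. It stood at 58.9, 73.0 and 66.7 CPM in NT, at 82.1, 82.6 and 80.5 CPM in sh#16 and at 85.0, 86.3 and 88.1 CPM in sh#87 libraries. All knockdown libraries lay above all NT libraries, by a margin smaller than the range of NT. The log2 fold change was 0.30 with sh#16 (SE 0.08, adjusted p = 0.00678), 0.39 with sh#87 (SE 0.08, adjusted p = 0.00158) and 0.35 with both (SE 0.08, adjusted p = 0.00384). Without NT replicate 1 the change with both shRNAs was 0.26 and was no longer called (adjusted p = 0.0172). The call with sh#16 was lost when any 1 of the 6 knockdown libraries was left out, with adjusted p-values between 0.0114 and 0.0247, and when only NT and sh#16 were fitted (adjusted p = 0.0191). The gene, on chromosome 11 from 65653601 to 65663857, overlaps RELA-DT, which had a log2 fold change of 1.12 with both shRNAs. How the counting used strand is not stated, so reads of these genes may not have been told apart.

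REL, which encodes c-Rel, lies on chromosome 2 from 60881574 to 60931612. Its level was 150, 118 and 95.5 CPM in NT, 113, 104 and 110 CPM in sh#16 and 147, 146 and 155 CPM in sh#87 libraries. The NT libraries spanned the sh#16 libraries and reached into the range of the sh#87 libraries. No call was made against NT, where the log2 fold change was -0.15 with sh#16 (95% confidence interval -0.46 to 0.16) and 0.31 with sh#87 (-0.00 to 0.62). With both shRNAs it was 0.10 (-0.28 to 0.48, adjusted p = 0.625). With sh#87 a call appeared once NT replicate 1 was left out (0.48, adjusted p = 8.06e-04).

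RELB, the partner of p52 in the noncanonical pathway, had the lowest level of the subunit genes in every group. The gene lies on chromosome 19 from 45001464 to 45038192. It stood at 1.38, 2.60 and 3.80 CPM in NT, at 3.41, 3.999 and 3.83 CPM in sh#16 and at 6.32, 6.97 and 5.90 CPM in sh#87 libraries. The sh#87 libraries lay above all others, while the sh#16 libraries overlapped NT. With sh#87 RELB was 2.44-fold higher (log2 fold change 1.29, SE 0.29, adjusted p = 0.00287). This call was lost without sh#87 replicate 2 (1.23, adjusted p = 0.0117), without NT replicate 2 (1.28, adjusted p = 0.0118) and when only NT and sh#87 were fitted (1.30, adjusted p = 0.0105). With sh#16 the log2 fold change was 0.52 (95% confidence interval -0.15 to 1.18, adjusted p = 0.140), and without NT replicate 3 it was 0.89 and was called (adjusted p = 0.00574). The pooled value was 0.96 (SE 0.34, adjusted p = 0.0278), which DESeq2 called (adjusted p = 0.00814).

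Among the inhibitors, NFKBIA encodes IκBα, which NF-κB itself induces and which ends its activity in the nucleus. It lies on chromosome 14 from 35401513 to 35404749. Its level was 37.4, 44.6 and 40.1 CPM in NT, 11.1, 11.4 and 11.5 CPM in sh#16 and 17.5, 16.0 and 15.6 CPM in sh#87 libraries. All knockdown libraries lay well below NT, and those with sh#16 were the lowest. NFKBIA was 3.59-fold lower with sh#16 (log2 fold change -1.84, SE 0.09, adjusted p = 2.88e-07) and 2.48-fold lower with sh#87 (-1.31, SE 0.09, adjusted p = 1.17e-06). With both shRNAs the log2 fold change was -1.56 (SE 0.16, adjusted p = 1.30e-05), and no alternative or omission of a library lost the call against NT.

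TNFAIP3 encodes A20, a ubiquitin-editing enzyme that dampens signaling from the TNF receptor to IKK. It lies on chromosome 6 from 137866349 to 137883312. It stood at 1.81, 1.26 and 2.07 CPM in NT, at 4.82, 4.11 and 5.04 CPM in sh#16 and at 3.16, 3.17 and 2.80 CPM in sh#87 libraries. The groups did not overlap, with sh#16 highest. At these levels a library held between 29 and 190 TNFAIP3 counts. TNFAIP3 was 2.69-fold higher with sh#16 (log2 fold change 1.43, SE 0.19, adjusted p = 1.34e-04) and 1.77-fold higher with sh#87 (0.82, SE 0.19, adjusted p = 0.00370). The change with both shRNAs was 1.16 (SE 0.26, adjusted p = 0.00232). This call was lost without NT replicate 2 (0.99, adjusted p = 0.0148). The call with sh#87 was lost without sh#87 replicate 1 (0.80, adjusted p = 0.0137) or replicate 2 (0.80, adjusted p = 0.0141), when only NT and sh#87 were fitted (0.84, adjusted p = 0.0119) and in limma-voom with a weight per group (0.84, adjusted p = 0.0368).

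NFKBIE encodes IκBε, a further inhibitor in the cytoplasm. The gene lies on chromosome 6 from 44258166 to 44265551. Its level was 6.41, 7.41 and 10.5 CPM in NT, 9.27, 9.53 and 9.26 CPM in sh#16 and 8.36, 9.12 and 7.17 CPM in sh#87 libraries. NT spanned the range of all knockdown libraries. The log2 fold change was 0.20 with sh#16 (95% confidence interval -0.20 to 0.60, adjusted p = 0.324) and 0.01 with sh#87 (-0.39 to 0.42, adjusted p = 0.942). With both shRNAs it was 0.11 (-0.26 to 0.49, adjusted p = 0.560). A call with sh#16 appeared once NT replicate 3, the highest library, was left out (0.41, adjusted p = 0.00992).

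The largest changes were in the 2 target genes. TRAF1 encodes an adaptor of the TNF receptor family that binds TRAF2 and cIAP proteins. It stood at 0.688, 1.08 and 0.734 CPM in NT, at 6.94, 6.81 and 6.35 CPM in sh#16 and at 9.61, 10.4 and 8.64 CPM in sh#87 libraries. The NT libraries held 16, 25 and 22 TRAF1 counts, against 116 or more in each knockdown library. TRAF1 was 8.04-fold higher with sh#16 (log2 fold change 3.01, SE 0.17, adjusted p = 7.36e-07) and 11.4-fold higher with sh#87 (3.52, SE 0.17, adjusted p = 1.83e-07). With both shRNAs the log2 fold change was 3.28 (SE 0.26, adjusted p = 2.05e-06), higher than that of 96.1% of all genes tested. The gene, on chromosome 9 from 120902393 to 120929171, overlaps PHF19, which had a log2 fold change of -1.59 with both shRNAs (adjusted p = 2.45e-06), opposite in sign to TRAF1.

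BIRC3 encodes cIAP2, a ubiquitin ligase that acts with TRAF2 on RIPK1 and on NIK. It lies on chromosome 11 from 102317484 to 102339403. Its level was 3.66, 2.60 and 2.10 CPM in NT, 13.97, 14.05 and 12.7 CPM in sh#16 and 20.1, 20.5 and 19.0 CPM in sh#87 libraries. The 3 groups did not overlap. BIRC3 was 4.90-fold higher with sh#16 (log2 fold change 2.29, SE 0.17, adjusted p = 3.48e-06) and 7.18-fold higher with sh#87 (2.84, SE 0.17, adjusted p = 6.15e-07). With both shRNAs the log2 fold change was 2.59 (SE 0.25, adjusted p = 7.51e-06). For TRAF1 and BIRC3 no alternative or omission of a library lost a call against NT. BIRC2, the neighbouring gene for cIAP1, was chosen for comparison after its values were seen and had a log2 fold change of 0.36 with both shRNAs (SE 0.07, adjusted p = 0.00102).

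**Figure D3:**
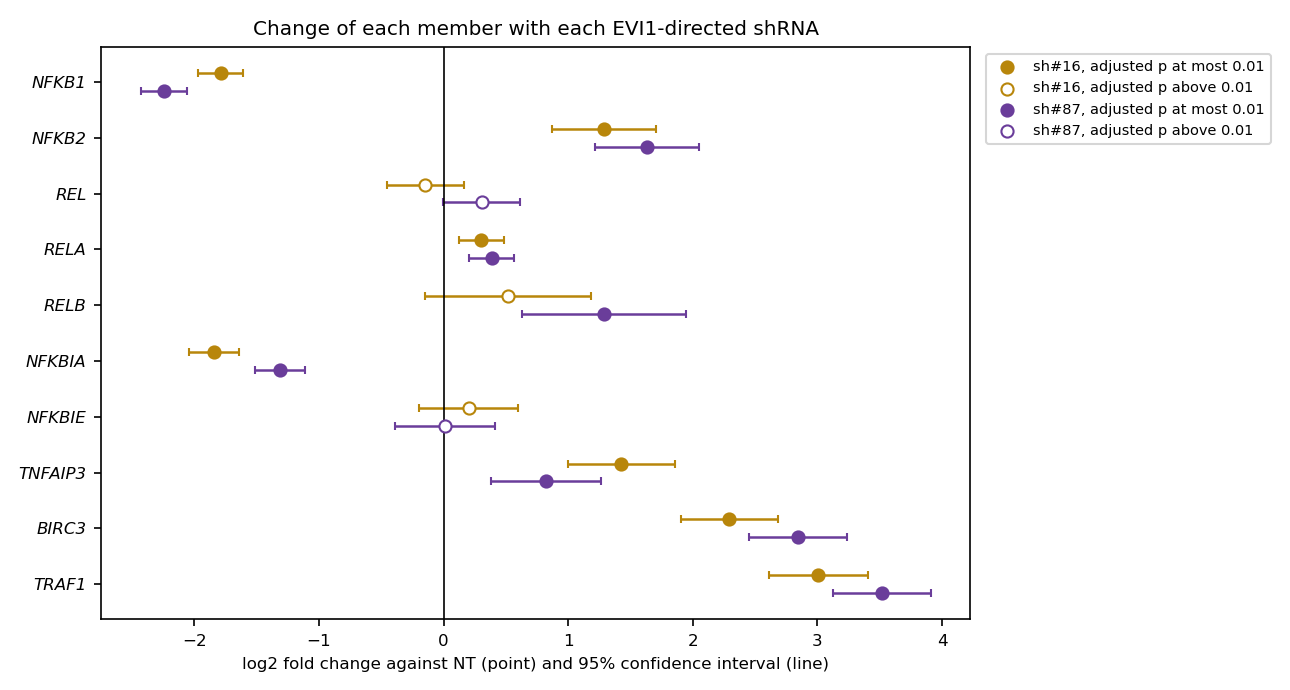
Log2 fold change of each gene against NT with sh#16 (gold) and sh#87 (purple); lines are 95% confidence intervals and open circles are changes with an adjusted p above 0.01. Values run from -2.25 for NFKB1 with sh#87 to 3.52 for TRAF1 with sh#87, and open circles stand for REL and NFKBIE with each shRNA and RELB with sh#16.

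The shRNAs were then compared with each other. For all 10 genes the sh#87 libraries did not overlap the sh#16 libraries, with NFKB1, NFKBIE and TNFAIP3 lower and the others higher with sh#87. Over all genes tested 65.4% did not overlap between the shRNAs, 31.1% higher and 34.3% lower with sh#87. In the fit of all 9 libraries, in which the spread of NT enters, 2 of these differences were called. NFKB1 was lower with sh#87 by a log2 fold change of -0.46 (SE 0.08, adjusted p = 0.00309), beside 9.42% of all genes that were lower, and NFKBIA was higher by 0.53 (SE 0.09, adjusted p = 0.00260), beside 8.29% that were higher. Relative to NT, NFKB1 thus changed further with sh#87 and NFKBIA further with sh#16. MECOM itself was lower with sh#87 by -0.43 (adjusted p = 0.00661). Of the other 8, REL (0.45, adjusted p = 0.0323), TNFAIP3 (-0.60, adjusted p = 0.0329), BIRC3 (0.55, adjusted p = 0.0235) and TRAF1 (0.51, adjusted p = 0.0246) missed the threshold by less than RELB (0.77, adjusted p = 0.0653). The intervals of NFKB2 (0.35, -0.06 to 0.75), RELA (0.08, -0.10 to 0.26) and NFKBIE (-0.19, -0.59 to 0.21) included 0. When only the sh#16 and sh#87 libraries were fitted, 8 of the 10 genes were called, all but RELA and NFKBIE, beside 48.0% of all genes. Without NT replicate 1 or NT replicate 3 in the fit of 3 groups 6 were called, beside 28.1% and 32.4% of all genes. The count was 0 without any 1 of the sh#16 libraries or without sh#87 replicate 2, and 1 without sh#87 replicate 1 or 3, while between 6 and 7 genes had an unadjusted p under 0.05 in these fits. The share of all genes called was between 6.65% and 9.92% in them, against 17.7% with all libraries.

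Levels of different genes were compared per kilobase of the canonical transcript, as CPM per kb. The transcripts in use in HNT34 were not measured, so the order rests on annotated lengths. In NT libraries RELA (26.3 ± 2.82, SD, n = 3), NFKBIA (26.1 ± 2.36) and NFKB1 (22.6 ± 1.23) led, and REL (10.9 ± 2.45), NFKB2 (5.99 ± 1.78), NFKBIE (3.46 ± 0.912) and RELB (1.15 ± 0.537) followed. The ranges of RELA and NFKBIA overlapped, as did those of RELA and NFKB1 and those of NFKB2 and NFKBIE narrowly. BIRC3 (0.405 ± 0.115) and TNFAIP3 (0.367 ± 0.0887) overlapped as well, and TRAF1 (0.192 ± 0.0497) was the lowest. In sh#16 libraries the order began with RELA (32.5 ± 0.445, SD, n = 3) and NFKB2 (14.6 ± 1.27), then REL (9.84 ± 0.397), NFKBIA (7.28 ± 0.130) and NFKB1 (6.56 ± 0.316). The sh#87 libraries had the same first 5, with RELA at 34.4 ± 0.613, NFKB2 at 18.6 ± 0.257, REL at 13.5 ± 0.411, NFKBIA at 10.5 ± 0.643 and NFKB1 at 4.77 ± 0.332 CPM per kb (SD, n = 3). NFKB2 thus stood at rank 5 in NT and at rank 2 with each shRNA, while NFKB1 went from rank 3 to rank 5. RELA led in every group by this measure. REL, with the longest canonical transcript at 11108 bases, had the highest mean CPM of the 10 genes in every group. TNFAIP3 was the lowest with each shRNA, at 0.998 ± 0.104 CPM per kb with sh#16 and 0.652 ± 0.0459 with sh#87, in place of TRAF1. RELB overlapped TRAF1 with sh#16 and BIRC3 with sh#87.

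Around these genes, 121 other genes of the pathway were listed by role. The table held 96 of them and 93 were tested. With both shRNAs 25 were higher (26.9%) and 37 were lower (39.8%), with a median log2 fold change of -0.13. These shares stand beside 30.1% and 29.7% of all genes tested. With sh#16 alone 22 were higher and 35 lower, where 29.8% and 30.2% of all genes tested were. With sh#87 alone 30 were higher and 41 lower, where 34.3% and 33.6% of all genes tested were. The counts per list below are with both shRNAs and stand beside the same 30.1% and 29.7% of all genes. The named examples are at most 3 per list, those with the largest change among genes that were called the same way with each shRNA, did not overlap between knockdown and NT and reached a mean of 5 CPM in the higher group.

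Of 12 genes for IKK and its activating kinases, 5 were higher and 3 lower. MAP3K14, which encodes NIK of the noncanonical pathway, stood between 4.82 and 6.67 CPM in NT, between 18.9 and 21.1 CPM in sh#16 and between 32.7 and 35.0 CPM in sh#87 libraries. Its log2 fold change was 2.18 with both shRNAs (SE 0.27, adjusted p = 4.22e-05). CHUK, which encodes IKKα, rose by 1.04 (SE 0.08, adjusted p = 1.89e-06), from between 26.6 and 28.6 CPM in NT to between 53.6 and 59.6 CPM. TAB2, an adaptor of the kinase TAK1, fell by 1.54 (SE 0.15, adjusted p = 7.38e-06). MAP3K14, CHUK and NFKB2 thus rose, while RELB was called with sh#87 alone and LTB, given below, fell. A link between these changes was not tested.

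Of 20 adaptors and ubiquitin ligases, 5 were higher and 8 lower. IRAK1 and MYD88, which carry signals from Toll-like and IL-1 receptors, fell by 1.91 (adjusted p = 6.67e-06) and 1.64 (adjusted p = 2.99e-06) on the log2 scale. Of the 4 other genes of the IκB family 1 was called, NFKBIZ, named after its values were seen, which was higher. The list of other negative regulators holds IRAK2, named after its values were seen, which was higher and whose place in the list is open to question. Of the 15 genes tested in this list, 6 were higher and 6 lower. Among them TAX1BP1, an adaptor of A20, fell by 1.46 (adjusted p = 1.09e-04), IRAK3, which restrains IRAK signaling, fell by 0.92 (adjusted p = 1.76e-04), and TRAF4 rose by 1.43 (adjusted p = 1.03e-04).

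Of 15 receptors 3 were higher and 7 lower, and of 6 ligands 1 was higher and 3 were lower. TNFRSF8, which encodes CD30, fell by 2.78 on the log2 scale (SE 0.27, adjusted p = 9.77e-06), and IL1RAP, the shared subunit of IL-1 family receptors, fell by 1.67 (SE 0.08, adjusted p = 1.42e-07). TNFRSF11A, which encodes RANK, rose by 2.21 (SE 0.16, adjusted p = 1.25e-06), from between 2.27 and 2.38 CPM in NT to between 8.49 and 12.4 CPM. LTB, a subunit of the lymphotoxin that engages the noncanonical pathway, fell from between 29.5 and 48.9 CPM in NT to between 0.97 and 2.75 CPM, a log2 fold change of -4.57 (SE 0.30, adjusted p = 6.36e-07). TNFSF8, the ligand of CD30, fell by 2.60 (adjusted p = 9.00e-08) and TNFSF13, which encodes APRIL, by 2.23 (adjusted p = 6.46e-06). The ligand that rose was TNF itself, named after its values were seen, which stayed between 1.07 and 2.53 CPM in knockdown and between 0.13 and 0.34 CPM in NT libraries. LTB is also a gene of lymphoid cells, and the summed B cell markers were lower in the same libraries, as given above. Their part in its values was not tested.

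Of 21 further target genes 4 were higher and 10 lower, where 30.1% and 29.7% of all genes tested were. Their median log2 fold change was -0.40, while that of BIRC3 and TRAF1, the members with the largest rises, was 2.93. Among the other members that are known targets, NFKB2 (1.47), TNFAIP3 (1.16) and RELB (0.96, not called) had positive values. NFKB1 (-2.00) and NFKBIA (-1.56) had negative values. IER3, an early response gene, rose from between 7.18 and 8.31 CPM in NT to between 58.8 and 66.2 CPM, a log2 fold change of 3.02 (SE 0.10, adjusted p = 1.73e-08). CCR7, a chemokine receptor, rose by 2.27 (SE 0.26, adjusted p = 2.34e-05). BCL2L1, which encodes the survival protein BCL-XL, fell by 1.94 (SE 0.19, adjusted p = 8.12e-06). Known targets of NF-κB thus moved in both directions, NFKB1 and NFKBIA among those that fell.

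**Figure D4:**
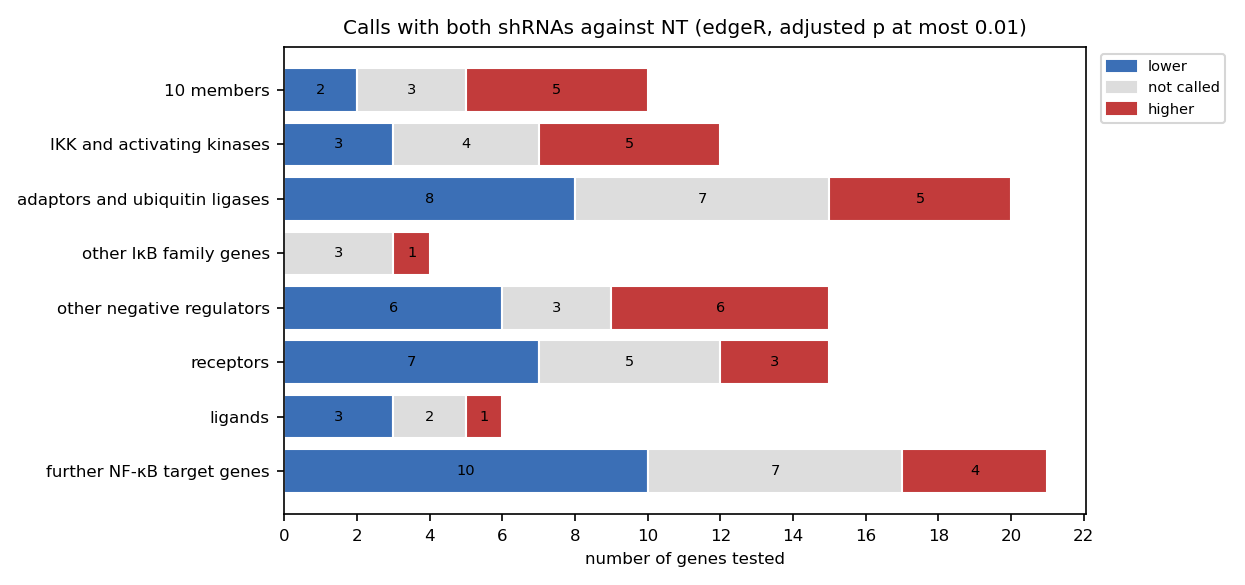
Number of genes tested in each list that were lower (blue), not called (grey) or higher (red) with both shRNAs against NT at an adjusted p of at most 0.01 (edgeR). Among the 10 genes described 5 were higher and 2 lower, and among 21 further target genes 4 were higher and 10 lower. Of all genes tested 30.1% were higher and 29.7% lower.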

How the data were processed

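RNA of HNT34 cells was sequenced in 9 libraries, 3 each for NT, sh#16 and sh#87, grouped by the labels. Unnormalized estimated counts by gene symbol were deposited in 1 table whose header names salmon output, whereas the methods name STAR gene counts with ENSEMBL annotation, and the submitters' processing notes name FastQC 1.3, STAR and GRCh38. The header stands 1 column left of the values and was matched in order to the 9 columns of values, all of which were whole.

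Counts were tested in R 4.3.3 with edgeR 4.0.16 (TMM, filterByExpr, quasi-likelihood test, Benjamini-Hochberg over the 16312 genes tested), called at an adjusted p of at most 0.01. Both shRNAs were 1 group in a fit of 2 groups, and single shRNAs were compared in a fit of 3. The script was tested on simulated counts with the same spread in every group, so that test does not cover the unequal spread of these libraries. The genes, lists and tests were chosen with earlier results of these data known. Named are the 10 genes, MECOM, defining markers, and at most 3 genes per pathway list by the rule given in the text. Some items that the rule would name are not reported here.

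Alternatives were DESeq2 1.42.0, limma-voom (limma 3.58.1), RLE and upper-quartile normalization, other filters, an adjusted p of at most 0.05, fits of 2 groups, the average of the single-shRNA effects, omission of mitochondrially encoded genes, omission of each library and a replicate block. limma-voom with 1 weight per group was added after the data were seen. Replicate numbers did not pair the libraries. Replicates differed beyond counting noise, with a chi-square per degree of freedom of at least 2.57, so none was counted as a duplicate. Depths of 17096170 to 43502389 counts limit detection to 3 counts per library, 0.0648 to 0.164 CPM, for counting error only. Promoter sequences are from RefSeq (GRCh38.p14), and transcript lengths from the canonical transcripts of the GRCh37 annotation. Motif searches ran in Python 3.11.15 with numpy 2.4.6, and plots in matplotlib 3.10.9.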

Additional observations from a re-analysis of the deposited data

Results flagged for a closer look

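Of the 28 NF-κB pathway genes named, 6 differed between the EVI1-directed shRNAs when tested directly with edgeR at the threshold of 0.01, a share of the same order as the 17.7% of all genes tested that differed. The values are log2 fold changes of sh#87 against sh#16. NFKB1 was lower with sh#87 by -0.46 and NFKBIA was higher by 0.53, while both were below NT with each shRNA. MAP3K14 was higher by 0.77 (adjusted p = 0.00134), a further rise beyond that with sh#16. IRAK3 (-0.44, adjusted p = 0.00293) and BCL2L1 (-0.61, adjusted p = 0.00548) were lower with sh#87 and had fallen with each shRNA. CCR7 was lower with sh#87 by -0.77 (adjusted p = 3.67e-04) although it rose with each shRNA against NT, by 2.61 with sh#16 and 1.83 with sh#87. The gap to the nearest neighbour, as a share of the range of the knockdown libraries, marked no library in any of the 28 genes. This comparison pooled the sh#16 and sh#87 libraries, and a step between the shRNAs widens the range. It could therefore hardly mark a library, and nothing is concluded from it.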

How the results depend on the processing

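Against NT, counts of calls stayed within 1.5 times of the values reported under all alternatives run, and without single libraries the members called were between 6 and 7 with both shRNAs and between 6 and 9 with sh#16 or sh#87, where between 47.9% and 59.1%, 49.7% and 68.2%, and 59.5% and 73.9% of all genes were called. NFKB1, NFKB2, NFKBIA, BIRC3 and TRAF1 kept their calls against NT throughout. Signs turned only for uncalled changes: without single libraries REL ran from -0.0684 (NT replicate 3 left out) to 0.268 with both shRNAs and from -0.317 to 0.0200 (NT replicate 1) with sh#16, and NFKBIE from -0.0421 (NT replicate 1) to 0.327 with both. NFKBIE with sh#87 ran from -0.137 (NT replicate 1) to 0.236, and was -0.0613 without sh#87 replicate 2 and -0.0496 without NT replicate 2. The 2 members called between sh#87 and sh#16 became 4 with DESeq2, 6 when the threshold was 0.05, 8 in a fit of only those groups, 8 with a weight per group, and between 0 and 6 without single libraries, where 24.6%, 33.7%, 48.0%, 45.3% and between 6.65% and 32.4% of all genes were called. A fit without NT, or with NT given its own weight, does not carry the wider spread of the NT libraries.

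Libraries with the same number did not deviate together (correlations between -0.223 and 0.111), so the numbers gave no pairing. With the replicate number as a block, edgeR called 6 members for the pooled knockdown, 6 for sh#16 and 8 for sh#87 against NT, and 56, 57 and 69 other pathway genes, beside 53.1%, 55.8% and 64.0% of all genes. It called 0 members for the difference of the shRNAs, with 7 at an unadjusted p under 0.05, beside 9.74% of all genes. Without the block DESeq2 called 4, beside 24.6%, and limma-voom 3, beside 18.2%. RELA with both shRNAs (adjusted p = 0.0106) and with sh#16 (adjusted p = 0.0122), and NFKB1 (adjusted p = 0.0119) and NFKBIA (adjusted p = 0.0109) between the shRNAs, passed the threshold no longer. Each member had at least 16 counts in every library.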
